A study of Mus musculus with 6 samples.

Results

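Genes of the cell cycle and of DNA replication were followed in the embryonic mouse gut with and without the receptor tyrosine kinase Ret. The 41 genes are a fixed list of cyclins, cyclin-dependent kinases (CDKs), their inhibitors, replication factors and mitotic regulators, each found by its symbol on 1 line of the deposited table of 23233 genes. All 41 had been tested by the authors, as had 13430 lines in all. The data are messenger RNA from guts of C57BL/6J mouse embryos at stage E10.5, and the comparison was between 3 wildtype samples and 3 samples homozygous for a Ret null allele. Embryos of both groups are described as male. Neither the lesion in the null allele nor the number of embryos per sample is stated in the labels. The table gives 1 FPKM value per genotype (sequenced fragments scaled to transcript length and to the size of the library), made by the authors from the samples of that genotype. Without values per sample neither the spread between samples nor the depth of sequencing can be given. Fold changes are Ret null over wildtype, an error after ± is the standard error that follows from dividing a log2 fold change by the authors' statistic, and genes are said to rise or fall only where the authors' q was under 0.05.

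A dividing cell passes from G1, where D-type cyclins with Cdk4 or Cdk6 inactivate the retinoblastoma protein and free E2F factors, into S phase, where the MCM helicase opens DNA for copying. Cyclin B with Cdk1 then drives mitosis, Aurora and Polo kinases build the spindle, and the spindle checkpoint holds sister chromatids together until every chromosome is attached. Messenger RNAs of S phase and mitosis are made mainly in cycling cells, so their level in a tissue is widely read as a measure of proliferation.

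The libraries differed in more than Ret. The value of Ret was 8.80 FPKM for wildtype against 0.0354 for Ret null. All 5 markers of enteric crest and neurons fell (summed level 57.8 FPKM in wildtype, 14.0 in Ret null), Ret itself being counted among them. All 4 of somite and skeletal muscle fell too (47.1 and 3.62 FPKM). All 4 markers each of gut mesenchyme (180 and 504 FPKM), gut epithelium (46.9 and 111 FPKM) and liver bud (13.1 and 267 FPKM) rose. Of 6 erythroid markers 2 fell and 3 rose (5962 and 3724 FPKM), of 3 endothelial markers 1 fell (95.0 and 83.0 FPKM), and the 3 macrophage markers stood at 36.7 and 35.8 FPKM. No marker was at 0. The markers were chosen with earlier results of these data known, so these counts are descriptions only. Of all tested lines 8.88% fell and 5.69% rose. Xist, made from an inactive X chromosome in female cells, had 0.136 FPKM for wildtype against 31.8 for Ret null, which goes against the male label for Ret null. The 4 Y-linked genes Ddx3y, Eif2s3y, Kdm5d and Uty were at 0.502 to 0.610 times their wildtype values. The part of these differences in any result below was not tested. None of the 41 genes lies on X or Y (0 members), and they spread over 17 chromosomes.

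Most of the cell cycle genes did not pass, and the share called was close to that of tested lines at 10 FPKM or more. Of 41 members 2 fell (Ccnd1 and Cdk6), 2 rose (Plk1 and Aurkb) and 37 did not pass. That is 9.76% called, against 14.6% of all tested lines, of which 8.88% fell and 5.69% rose, and 9.48% of tested lines at 10 FPKM or more, the range that holds 37 of the members. Among those higher lines 4.9% fell and 4.58% rose. At q under 0.01, 2 members fell and 0 rose, against 6.1% and 3.72% of tested lines (9.81% in all). At q under 0.1, 5 fell and 3 rose, against 10.6% and 6.96% (17.5% in all). Before adjustment (p under 0.05), 5 were lower and 3 higher, against 13.5% and 9.91% (23.4% in all). With a minimum change of 1.5-fold, 1 member fell and 0 rose, against 5.2% and 3.4% (8.6% in all). Among lines of at least 5 FPKM, 1 member fell and 2 rose, against 6.54% and 4.78% (11.3% in all). With p taken from the authors' statistic as a normal deviate, 0 members passed, against 2.78% lower and 1.72% higher (4.5% in all).

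The median log2 fold change of the members was 0.10 with no value added to the FPKM, against 0.01 for all tested lines and 0.04 for those at 10 FPKM or more. Values within 0.2 of 0 on the log2 scale were held by 27 members (65.9%), by 62.5% of all tested lines and by 77.9% of those at 10 FPKM or more. The sign leaned one way: 32 members (78.0%) had a higher value in Ret null gut, against 52.0% of all tested lines and 60.3% at 10 FPKM or more. Fewer cells of a type and less RNA per cell cannot be told apart in whole gut.

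**Figure D1:**
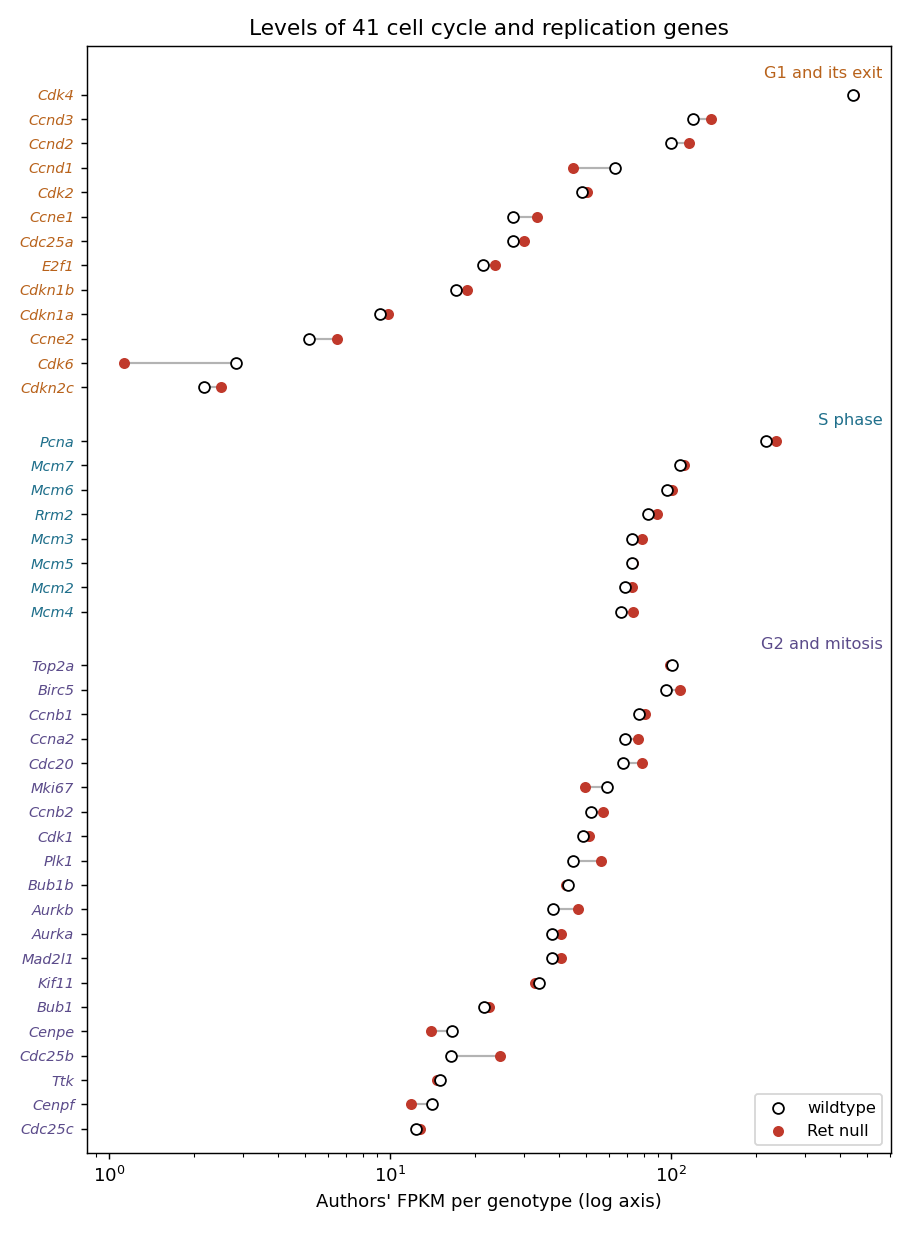
Authors' FPKM value of each of the 41 genes (log axis), with an open circle for wildtype and a filled red circle for Ret null, 1 value per genotype, grouped by phase and sorted by the wildtype value. The pairs lie close together except for Cdk6 (2.84 and 1.13 FPKM) and, less far apart, Ccnd1 (63.2 and 44.7 FPKM) and Cdc25b (16.5 and 24.6 FPKM).

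**Figure D2:**
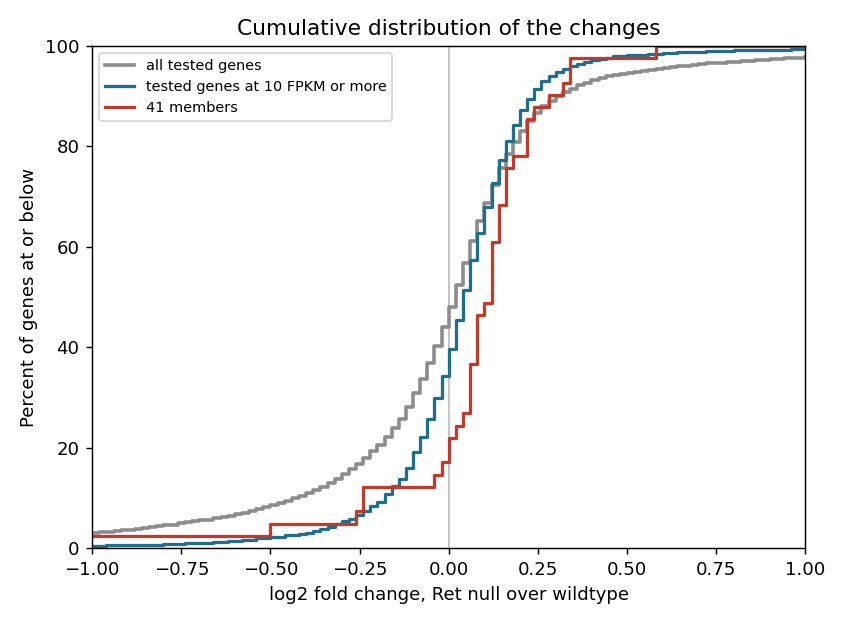
Cumulative percent of genes at or below each log2 fold change (Ret null over wildtype, shown from -1 to 1) for the 41 members, all tested lines and tested lines at 10 FPKM or more. The curve of the members runs to the right of the other two around its median of 0.10.

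The G1 genes held both falls. Ccnd1 encodes cyclin D1, which couples growth factor signals to entry into the cycle. Its value fell 1.42-fold, from 63.2 to 44.7 FPKM (-0.50 ± 0.25 on the log2 scale, q = 0.00206 in the authors' deposited table). This line of the table covers chr7:144929931-144939925 (mm10). Its lower coordinate is that of RefSeq, its upper one lies past the RefSeq one at 144939831, and it overlaps the gene LTO1. Cdk6, one of the partner kinases of D-type cyclins, fell 2.52-fold, from 2.84 to 1.13 FPKM (-1.33 ± 0.44, q = 0.000775 in the authors' deposited table). Its line covers chr5:3344312-3522225, short of the RefSeq span (3341004 to 3531008) at both ends. Cdk6 was among the lowest members in level, above 12.3% of tested lines, and with 1 FPKM added to both genotypes its log2 fold change was -0.85. Both calls depend on how p was obtained. With the authors' statistic read as a normal deviate (below, the normal deviate), the p adjusted over all tested lines was 0.426 for Ccnd1 and 0.0520 for Cdk6.

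The closest relatives of these genes did not pass. The other D-type cyclins Ccnd2 and Ccnd3 stood at 100 and 120 FPKM in wildtype and at 116 and 139 FPKM in Ret null gut, with log2 fold changes of 0.21 ± 0.19 each, and neither passed (q = 0.238 and 0.309 in the authors' deposited table). The summed level of the D-type cyclins was 283 FPKM for wildtype and 299.5 FPKM for Ret null, a log2 difference of 0.08. Within that sum Ccnd1 made up 22.3% in wildtype and 14.9% in Ret null, Ccnd2 35.4% and 38.7%, and Ccnd3 42.3% and 46.4%. The Ccnd2 line covers 3.21 times the RefSeq span of the gene, and the Ccnd3 line holds 1 other coding gene. The sum and shares may therefore not be those of the cyclins alone. Cdk4, the other partner kinase, had the highest level of all members at 445 and 448 FPKM (0.01 ± 0.17). Cdk6 was a small part of the summed Cdk4 and Cdk6 level, 0.633% in wildtype and 0.251% in Ret null. Whether the changes of relatives differ from each other was not tested, since the table has no value per sample.

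The genes that carry cells from G1 into S phase had values above wildtype that did not pass. Ccne1, encoding cyclin E1, the activator of Cdk2, went from 27.5 to 33.3 FPKM (0.28 ± 0.18, q = 0.0846 in the authors' deposited table). The other E-type cyclin gene, Ccne2, was at 5.15 and 6.47 FPKM (0.33 ± 0.45). The Ccne2 line covers 4.38 times the RefSeq span of the gene and holds 1 other coding gene. Cdk2 stood at 48.2 and 50.3 FPKM. The transcription factor gene E2f1 was at 21.4 and 23.6 FPKM (0.14 ± 0.19), and Cdc25a, a phosphatase that activates Cdk2, at 27.3 and 30.0 FPKM (0.13 ± 0.17). The inhibitors, which hold cells in G1, had similar values in both genotypes: Cdkn1a (p21) was at 9.21 and 9.84 FPKM, Cdkn1b (p27) at 17.2 and 18.8 FPKM and Cdkn2c (p18) at 2.18 and 2.51 FPKM, with log2 fold changes of 0.10, 0.13 and 0.21. None of them passed. Over the 13 genes of this phase 2 fell and 0 rose in the authors' Cuffdiff test (15.4% called, close to the 14.6% of all tested lines), 1 more was higher before adjustment (Ccne1, p under 0.05), and 0 passed with the normal deviate. Their median was 0.13, with 11 of 13 values above wildtype.

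S phase genes had the narrowest range of changes of the 3 phases. None of 8 passed in the authors' Cuffdiff test (0 fell, 0 rose), against 9.48% of tested lines at 10 FPKM or more. With only 8 genes, a count of 0 is close to that share. Also 0 passed with the normal deviate (4.5% of all tested lines) or before adjustment (p under 0.05, 23.4% of all tested lines). The median log2 fold change was 0.10, all 8 values were above wildtype, and they ran only from 0.02 (Mcm5) to 0.15 (Mcm4). The 6 subunits of the MCM helicase, which form 1 ring in equal numbers, had wildtype levels from 66.1 FPKM (Mcm4) to 107 FPKM (Mcm7). In order of wildtype level Mcm4 stood at 66.1 and 73.4 FPKM, Mcm2 at 68.7 and 72.5, Mcm5 at 72.4 and 73.5, Mcm3 at 72.8 and 78.8, Mcm6 at 96.5 and 101, and Mcm7 at 107 and 111 FPKM. Each difference was smaller than its implied standard error of 0.17 to 0.19. Pcna, the sliding clamp of DNA polymerase, was at 218 and 236 FPKM (0.12 ± 0.16), and Rrm2, the regulated subunit of ribonucleotide reductase, at 82.8 and 89.5 FPKM (0.11 ± 0.17). With 1.96 implied standard errors on each side, nominal 95% intervals of the 8 genes lay between -0.32 and 0.49 on the log2 scale. That is between 0.802 and 1.41 times wildtype. The authors' p-values do not follow from these errors. For all 8 genes the authors' Cuffdiff p was smaller than the p of the normal deviate (for Mcm4 0.142 against 0.387). The true coverage of the intervals is therefore not known.

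**Figure D3:**
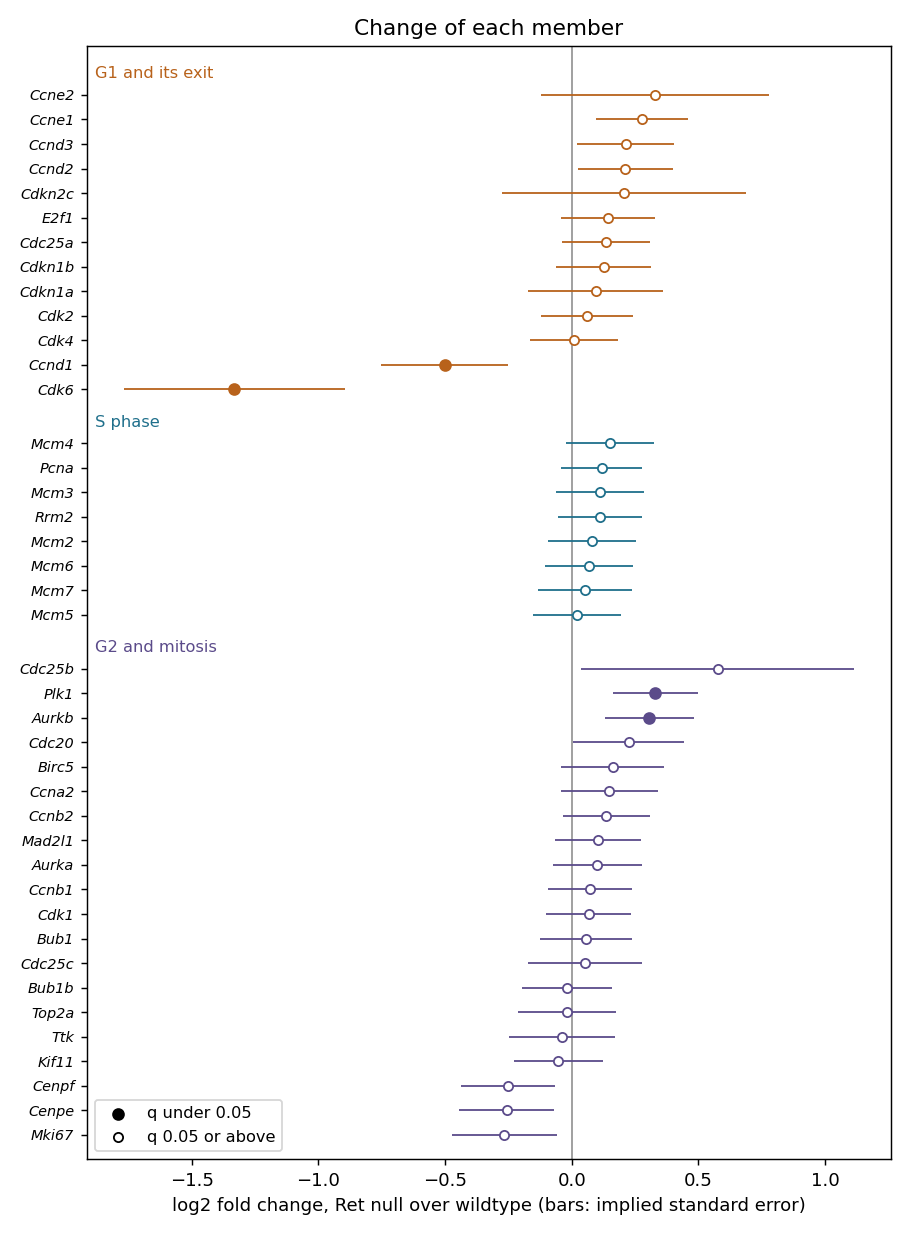
Log2 fold change (Ret null over wildtype) of each member with its implied standard error as a bar, grouped by phase; filled circles passed q under 0.05 in the authors' table and open circles did not. The S phase genes form a tight column between 0.02 and 0.15, Cdk6 and Ccnd1 lie to the left at -1.33 and -0.50, and Plk1 and Aurkb to the right at 0.33 and 0.31.

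Among the 20 genes of G2 and mitosis 2 rose and 0 fell. That is 10% called, close to the 9.48% of tested lines at 10 FPKM or more, of which 4.58% rose. Plk1, the Polo-like kinase of mitotic entry and spindle assembly, rose from 44.8 to 56.3 FPKM (0.33 ± 0.17, q = 0.0167 in the authors' deposited table). Its line covers chr7:122159437-122169875. Aurkb, the kinase of the chromosomal passenger complex that corrects kinetochore attachment, rose from 37.9 to 46.9 FPKM (0.31 ± 0.17, q = 0.0299 in the authors' deposited table), on chr11:69045643-69051662. Both are changes of under 1.5-fold, and neither call held at q under 0.01. From the authors' statistic as a normal deviate, the adjusted p was 0.453 for Plk1 and 0.589 for Aurkb. The group's median was 0.07, with 13 of 20 values above wildtype.

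The cyclins of this phase and their kinase were close to equal. Ccna2 stood at 68.6 and 76.0 FPKM, Ccnb1 at 76.8 and 80.8, Ccnb2 at 52.1 and 57.3 and Cdk1 at 48.6 and 51.0 FPKM, with log2 fold changes of 0.15, 0.07, 0.14 and 0.07. Of the Cdc25 phosphatases that activate Cdk1, Cdc25c was at 12.4 and 12.8 FPKM (0.05 ± 0.22). Cdc25b was at 16.5 and 24.6 FPKM, and at 0.58 ± 0.54 its error was as wide as its change (q = 0.259 in the authors' deposited table). For Cdc25b the line covers chr2:131127412-131604824, 39.5 times the RefSeq span of the gene, with 12 other protein-coding genes inside, so its value may not be that of Cdc25b alone. The lines of Ccna2, Ccnd3, Ccne2 and Cdc20 each also hold 1 other coding gene.

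Spindle checkpoint genes, which delay anaphase, lay near 0: Bub1 at 0.06 ± 0.18, Bub1b at -0.02 ± 0.18, Mad2l1 at 0.10 ± 0.17 and Ttk at -0.04 ± 0.21 on the log2 scale. Bub1 stood at 21.6 and 22.5 FPKM, Bub1b at 42.9 and 42.3, Mad2l1 at 37.8 and 40.6 and Ttk at 15.1 and 14.7 FPKM. Cdc20, the activator of the anaphase-promoting complex on which that checkpoint acts, was at 67.5 and 78.9 FPKM (0.23 ± 0.22). Birc5 (survivin), which binds Aurora B in the passenger complex, was at 96.3 and 108 FPKM (0.16 ± 0.20), and Aurka, the Aurora kinase of spindle poles, at 37.9 and 40.6 FPKM (0.10 ± 0.18). The motor gene Kif11, needed for a bipolar spindle, was at 34.0 and 32.8 FPKM, and Top2a, which untangles sister DNA, at 101 and 99.4 FPKM. These genes show no common direction beyond their errors.

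The lowest values of this phase, relative to wildtype, were those of Mki67, which encodes the proliferation antigen Ki-67, and of the kinetochore genes Cenpe and Cenpf. Mki67 stood at 59.3 and 49.3 FPKM (-0.27 ± 0.21), Cenpe at 16.7 and 14.0 FPKM (-0.26 ± 0.19) and Cenpf at 14.2 and 11.9 FPKM (-0.25 ± 0.19). None passed (q = 0.0958, 0.0756 and 0.0835 in the authors' deposited table), while all 3 were lower before adjustment (p under 0.05). They lay opposite in sign to Plk1, Aurkb and Cdc20, which are markers of the same phase. With Ccne1 they are the members just outside the threshold, and Aurkb and Plk1 are those just inside it.

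Longer transcripts among the members tended to have lower values in Ret null gut, a relation noticed after the values were seen. Mki67, Cenpf, Cenpe and Cdk6 have the longest annotated transcripts of the 41 genes, at 10061, 11130, 7910 and 11525 nucleotides, and all had lower values in Ret null gut. Across the 41 genes Spearman's rho between length and log2 fold change was -0.48, and across the 20 genes of mitosis it was -0.64 (Pearson's r with log2 length -0.59 and -0.67). Across the 13 genes of G1 rho was -0.24 and across the 8 of S phase -0.21, both near the -0.22 of all tested lines given below. Pearson's r with log2 length was further from 0 in both, at -0.70 for G1 and -0.33 for S phase, against -0.12 for those tested lines. The G1 value includes Cdk6, the longest and lowest of that group (-1.33). Ccnd2, the next longest G1 gene at 6330 nucleotides, was at 0.21. Pearson's r for G1 without Cdk6 was not computed. Of the 5 mitotic genes of 5000 nucleotides or more 4 were below wildtype (median -0.25), and of the 15 shorter ones 12 were above it (median 0.10). Among those 15 alone rho was -0.41. The long gene above wildtype is Mad2l1, whose annotated length of 7557 nucleotides exceeds its RefSeq span of 5887 bases. Its length class, and its part in the rho values, are therefore in doubt. The correlations are descriptions across genes measured in the same libraries, and genes are not independent replicates. In 123 other cell cycle genes with a length, rho was -0.18, and in the 40 of them from the list of mitotic entry, spindle and cytokinesis it was -0.26.

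A gradient of the same sign ran across all tested genes. Across 11885 tested lines at 1 FPKM or more with an annotated length, rho was -0.22. The median log2 fold change was 0.05 for transcripts of 1000 to 2000 nucleotides, 0.04 up to 3000, 0.01 up to 5000, -0.07 up to 8000 and -0.25 at 8000 or more. Of the longest class 40.6% fell and 2.42% rose, against 4.66% and 6.17% from 1000 to 2000 nucleotides. Relative to the median of their own length class, Mki67 stood at -0.01, Cenpf at 0.00 (-0.000355 before rounding) and Cenpe at -0.19, so the first pair lay at the level of other transcripts as long. Ccnd1 and Cdk6 remained at -0.51 and -1.08 on that scale, and Plk1 and Aurkb at 0.29 and 0.26. The lengths are of the longest annotated protein-coding transcript, which need not be the one made in gut. The line of Cdk6 ends before the RefSeq end of the gene. Its length of 11525 nucleotides, and so its length class, may not be those of the measured transcript.

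**Figure D4:**
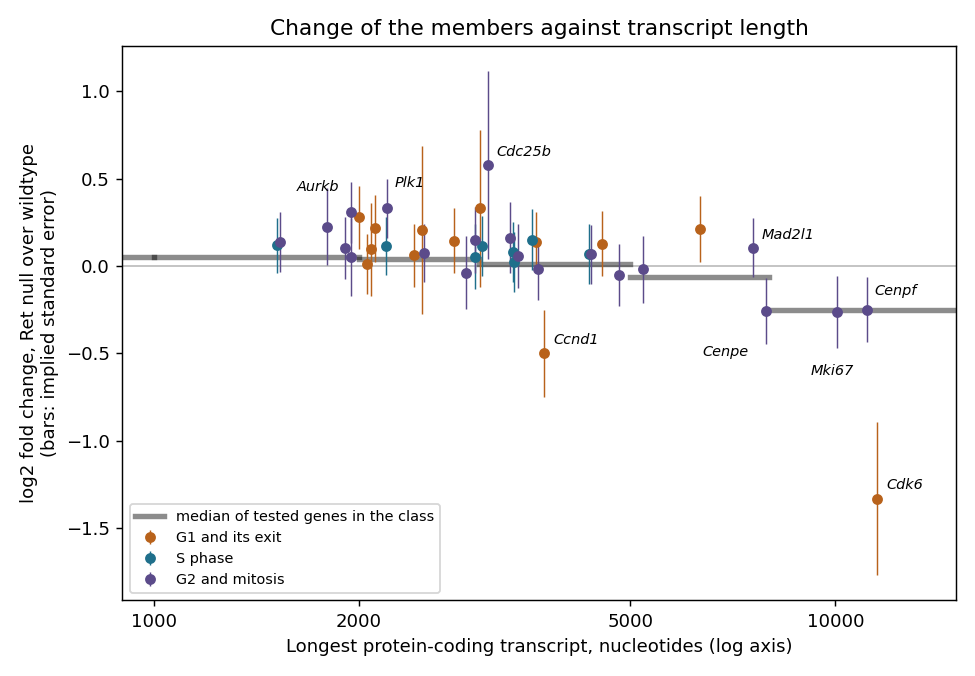
Log2 fold change (Ret null over wildtype) of the 41 members with implied standard errors as bars, against the length of the longest protein-coding transcript (log axis); grey bars are the medians of tested genes at 1 FPKM or more in each length class. Mki67 and Cenpf sit on the grey bar of the longest class at -0.25, while Ccnd1 and Cdk6 lie below theirs.

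The promoters of the 3 phases differed in the motif letters they hold. Many mitotic genes carry a cell cycle homology region (CHR), bound by the DREAM and MuvB complexes, downstream of CCAAT boxes bound by NF-Y, and many S phase genes carry E2F sites. RefSeq promoter sequences (GRCm38.p6, 250 bases before to 50 after an annotated start) were found for 34 of the 41 members, and letters were searched on both strands. The CHR was searched as TTTGAA and also as TTCGAA. The CCAAT box was searched by its name's letters. For E2F the cores were TTCCCGC, then TTGGCGC, and also TTCGCGC, which can overlap each other. CHR letters were in 13 of 17 mitotic genes (76.5%), 2 of 7 S phase genes and 0 of 10 G1 genes, against 21.7% of 27025 genes in the table. CCAAT was in 15 of 17 mitotic genes, 7 of 7 S phase genes and 5 of 10 G1 genes, against 41.1% of all. E2F letters were in 3 mitotic, 4 S phase and 3 G1 genes, against 9.20% of all. All 13 mitotic genes with the CHR letters also had CCAAT, a pair held by 8.61% of all genes. A match is a description of the sequence and no evidence of binding.

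The 150 bases before the annotated start are shown for mitotic genes on both sides of 0, for 1 S phase gene and for Cdk6, the largest fall, with the matched letters, or their reverse complement where the match is on the other strand, in capitals. They run 5′ to 3′ on the gene's strand, at chr10:69352913-69353062 (minus strand) for Cdk1, chr4:118437344-118437493 (minus strand) for Cdc20, chr19:37376232-37376381 (plus strand) for Kif11, chr7:135716380-135716529 (minus strand) for Mki67, chr7:122159285-122159434 (plus strand) for Plk1, chr1:128359706-128359855 (minus strand) for Mcm6 and chr5:3343743-3343892 (plus strand) for Cdk6.
Cdk1: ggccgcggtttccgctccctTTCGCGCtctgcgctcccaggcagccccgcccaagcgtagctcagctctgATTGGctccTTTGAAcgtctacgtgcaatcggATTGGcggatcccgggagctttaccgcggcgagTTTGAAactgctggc
Cdc20: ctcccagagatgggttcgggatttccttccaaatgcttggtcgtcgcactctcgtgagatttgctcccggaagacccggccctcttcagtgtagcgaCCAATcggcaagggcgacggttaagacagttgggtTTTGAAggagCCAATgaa
Kif11: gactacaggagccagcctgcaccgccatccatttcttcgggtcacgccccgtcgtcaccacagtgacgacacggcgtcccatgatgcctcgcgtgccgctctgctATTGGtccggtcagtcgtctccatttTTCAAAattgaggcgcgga
Mki67: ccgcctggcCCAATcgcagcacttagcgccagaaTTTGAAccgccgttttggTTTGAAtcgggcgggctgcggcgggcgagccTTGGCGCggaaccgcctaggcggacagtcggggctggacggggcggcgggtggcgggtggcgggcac
Plk1: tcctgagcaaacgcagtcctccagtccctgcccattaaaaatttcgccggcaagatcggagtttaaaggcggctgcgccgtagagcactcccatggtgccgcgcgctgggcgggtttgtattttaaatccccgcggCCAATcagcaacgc
Mcm6: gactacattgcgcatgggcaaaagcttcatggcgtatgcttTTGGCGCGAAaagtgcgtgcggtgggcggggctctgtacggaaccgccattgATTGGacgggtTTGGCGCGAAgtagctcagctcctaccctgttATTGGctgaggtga
Cdk6: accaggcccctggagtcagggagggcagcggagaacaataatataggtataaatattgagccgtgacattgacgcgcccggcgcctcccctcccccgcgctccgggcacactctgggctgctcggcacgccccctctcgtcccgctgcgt
In Cdc20 and Kif11 the CHR letters start 18 and 19 bases before the start, with a CCAAT box 53 and 45 bases before it. The letters are on the gene's strand in Cdc20 and on the other strand in Kif11, and Cdc20 has another CCAAT box 8 bases before its start, which Kif11 lacks. Cdk1 has CHR letters at 71 and 15 bases before its start. Mki67 has them at 116 and 98 bases, and its log2 fold change of -0.27 is opposite in sign to that of Cdc20 (0.23). Plk1 has a CCAAT box 14 bases before its start and its CHR letters 31 bases after it, outside the stretch shown. Mcm6 has E2F letters on both strands in 2 places of this stretch and CCAAT boxes 57 and 14 bases before its start. None of the searched letters are in the window of Cdk6. Aurkb and Ccnd1 are not shown.

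In the wider pathway, read from 5 further lists of 129 genes, most genes did not pass either. Of 125 tested members 2 fell and 6 rose (6.40% called, against 14.6% of all tested lines and 9.48% of those at 10 FPKM or more), and their median log2 fold change was 0.09. None of 35 genes of the replication origin and fork passed in the authors' Cuffdiff test, with 1 lower and 2 higher before adjustment (p under 0.05) and 0 with the normal deviate. The highest levels in that list were those of Rfc2, a clamp loader subunit, at 75.5 and 75.9 FPKM, and of the DNA ligase gene Lig1 at 59.1 and 67.8 FPKM. Its median of 0.09 was close to that of the 6 MCM genes (0.07). None of 10 genes of nucleotide supply passed (0 lower and 1 higher before adjustment, 0 with the normal deviate). Among them Impdh2, an enzyme of guanine nucleotide synthesis, was at 137 and 156 FPKM and Rrm1, the partner of Rrm2, at 65.7 and 64.0 FPKM.

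In the list of mitotic entry, spindle and cytokinesis 3 of 41 tested genes rose and 0 fell. The 7.32% called, all rises, stand against 5.69% of all tested lines that rose and 4.58% of those at 10 FPKM or more. Pttg1, encoding securin, which restrains separase until anaphase, rose from 24.9 to 42.7 FPKM (0.78 ± 0.27). Nusap1, a spindle microtubule protein gene, rose from 29.7 to 37.1 FPKM (0.32 ± 0.20), and Ube2c, the ubiquitin-conjugating enzyme of the anaphase-promoting complex, from 128 to 159 FPKM (0.31 ± 0.15). In the authors' deposited table q was 0.000775, 0.0322 and 0.0211. Before adjustment 0 of this list were lower and 8 higher (p under 0.05), against 13.5% and 9.91% of all tested lines, and 0 passed with the normal deviate.

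Upstream of the cycle, 3 of 21 tested genes of the retinoblastoma, E2F and CDK inhibitor list rose and 0 fell. That is 14.3% called, close to the 14.6% of all tested lines, of which 5.69% rose and 8.88% fell. Myc, a growth-promoting transcription factor gene, rose from 16.8 to 24.2 FPKM (0.53 ± 0.21, q = 0.000775 in the authors' deposited table). E2f8, a repressor of the E2F family, rose from 10.1 to 13.3 FPKM (0.39 ± 0.20) and E2f4, the E2F of the DREAM complex, from 44.2 to 56.6 FPKM (0.36 ± 0.18), with q = 0.0121 and 0.00968 in the authors' deposited table. Before adjustment 2 were lower and 3 higher (p under 0.05), against 13.5% and 9.91% of all tested lines, and with the normal deviate 0 passed. Cdkn1c (p57), an inhibitor of the same family as Cdkn1a and Cdkn1b, had the highest level of this list at 410 and 405 FPKM (-0.02 ± 0.20). Cdkn2d (p19), a relative of Cdkn2c, stood at 27.5 and 25.9 FPKM (-0.09 ± 0.19), and neither passed. Both are named here as relatives of members, outside the rule for this list.

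Of 18 tested p53 targets and growth arrest genes 2 fell and 0 rose, 11.1% called, against 8.88% of all tested lines that fell and 14.6% called in all. Gadd45g, a stress and differentiation gene also made in differentiating neuronal cells, fell from 17.0 to 7.83 FPKM (-1.12 ± 0.28), and of the members and the further lists it alone passed with the normal deviate of the authors' statistic (adjusted p = 0.00243). Trp53inp1, a p53-induced stress gene, fell from 10.2 to 7.30 FPKM (-0.49 ± 0.20). Both had q = 0.000775 in the authors' deposited table. Before adjustment 2 were lower and 0 higher, against 13.5% and 9.91% of all tested lines. In the same Ret null value all 5 markers of enteric crest and neurons, Ret itself among them, were lower. The part of that in these falls was not tested.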

How the data were processed

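Gut RNA of 3 wildtype and 3 Ret null samples was selected on oligo dT beads and made into Illumina libraries, per the labels' protocols. Per the submitters' processing notes the tools were Picard, TopHat2, Cufflinks and Cuffdiff, on mm10. Their versions and settings and the annotation were not given in the sources used here. In layout the deposited table is Cuffdiff's gene test, in which the authors give each genotype 1 FPKM value. The p-value, the q-value and the test statistic, a score, are the authors' own, per the file headers. Adjusting the deposited p-values by Benjamini and Hochberg over all tested lines returned the q-values to within 5.9e-05. The genotype columns carry the letters w and h, read as wildtype and homozygous null on the ground of the Ret value. Of 23234 lines, 1 held 2 records run together and was not used.

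Log2 fold changes were recomputed from FPKM with Python 3.11.15, pandas 2.3.3 and scipy 1.17.1. The standard error was the log2 fold change divided by the test statistic. The authors' p-values do not follow from it, so p was also computed from the statistic as a two-sided normal deviate with Benjamini-Hochberg adjustment. Group medians in the alternatives use 1 FPKM added. The log2, standard error and Benjamini-Hochberg arithmetic was checked on simulated data with normal errors. That check does not bear on the authors' q-values. Members, lists and marker genes were chosen with earlier results of these data known. All members were named. Of each further list the called genes were named (at most 8, by size of change), or the 2 with the highest level where none was called. Marker lists are given as counts and sums. Sgol2a was not matched, and Foxm1 shares its line with another symbol. Transcript lengths are from GENCODE M21 and promoters from RefSeq. Starts were raised by 1 to count from 1. Ccnb1, Ccnb2, Ccnd3 and Pcna have named pseudogenes that could share reads. Nothing says that samples came from separate litters, so the authors' p-values may measure technical spread.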

Additional observations from a re-analysis of the deposited data

How the results depend on the processing

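No paired analysis was possible because the table holds 1 value per genotype, and for the same reason leaving out a replicate was not run. The group medians stayed above 0 under every alternative run, but centring and upper quartile scaling moved log2 values by only 0.01 and 0.04. With 1 FPKM added the medians were 0.13 for G1, 0.09 for S phase, 0.07 for mitosis and 0.10 for all members. Tested lines at 10 FPKM or more had a median of 0.03 in that setting. Upper quartile scaling gave the lowest group medians (0.09, 0.06, 0.03 and 0.06). The calls were less stable. With the normal deviate the 2 falls and 2 rises among members became 0 and 0 (G1 falls 0, mitotic rises 0), the rises of the retinoblastoma and E2F list and of the mitotic entry list became 0 each, and the falls of the p53 list became 1. The p-values then come from the statistic alone. At q under 0.01 mitotic rises and all rises among members were 0, and 1 gene of the mitotic entry list rose. At q under 0.1 the members had 5 falls, with 3 in mitosis (Mki67, Cenpe and Cenpf), and 1 rise in G1 (Ccne1). At that threshold 1 gene of the retinoblastoma and E2F list fell, 1 of the replication list fell and 1 rose, 1 of the nucleotide list rose, and 5 of the mitotic entry list rose. A mean of at least 5 FPKM left 1 fall in G1 and 1 among all members, since Cdk6 is below it. A minimum of 1.5-fold left 1 fall in G1 and 1 among all members (Cdk6), and 0 rises in mitosis and 0 among all members. Centred on the median of tested lines, Cdk4 changed sign to -0.0020. Relative to the length class median, a setting chosen after seeing the data, Cdk4 was at -0.029 and Top2a at 0.047, each opposite to its deposited sign. Without values per sample or counts, depth limits cannot be given, and the widest implied errors were those of Cdc25b, Cdkn2c, Ccne2 and Cdk6 (0.54, 0.48, 0.45 and 0.44).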
